A study of Mus musculus with 30 samples.

Results

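The distance from normal thyroid that remained under drug was measured in mouse thyroids that carried Braf V600E and had lost Smarcb1. The thyroids, called Braf Smarcb1 KO CKI here, had the genotype Braf(V600E) with Smarcb1 knockout and received the MEK inhibitor CH5126766 (CKI in the labels) over 8 days, with death about 2 h after the last dose. They were set against untreated wild-type thyroid, which received neither drug nor vehicle. The members were chosen by their labels alone: 3 libraries of Braf Smarcb1 KO CKI (replicates 1, 2 and 4) and 3 of wild type (1, 2 and 3), 6 of the 28 libraries analysed. All 19016 genes with enough reads, of 33924 in the table, were tested. Braf thyroids on CKI (replicates 1, 4 and 5) and Braf Smarcb1 KO thyroids on vehicle (replicates 1, 2 and 3), dosed for the same 8 days, were further groups for comparison, with 3 libraries each. Braf thyroids on vehicle (replicates 2, 4 and 5), also dosed for 8 days, were used for the library distances and the thyroid score only. Braf Smarcb1 KO CKI and wild-type thyroids therefore differ in 3 ways at once, in Braf, in Smarcb1 and in dosing, and these cannot be told apart in the main comparison. The labels do not give the promoter behind the Braf allele or behind the knockout, the age, or whether replicates came from separate animals. The p-values therefore measure only the spread between libraries within groups, which may be technical. This spread was estimated over all 28 libraries fitted, which included Arid1a and Arid2 knockout groups.

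Thyroid follicular cells make thyroid hormone from iodide and the scaffold protein thyroglobulin, under the control of thyrotropin and the transcription factors Pax8, Nkx2-1 and Foxe1. Braf V600E is an activated kinase that signals through MEK and ERK, and in thyroid tumours this pathway is known for lowering the genes of iodide handling. Smarcb1 is a core subunit of SWI/SNF, a complex that moves nucleosomes and opposes polycomb repression, and its loss is known from rhabdoid tumours.

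Levels are given in CPM, counts per 1e6 of the TMM-scaled library size, and values of a group are listed in the order of its replicate numbers. Differences are log2 fold changes ± SE, as Braf Smarcb1 KO CKI minus the group named, with a Benjamini-Hochberg adjusted p over all genes tested from edgeR's quasi-likelihood test. A gene is called when this adjusted p is under 0.05. The 6 libraries held 27562685 to 32509984 counts. The top 10 genes held 6.71% to 6.74% of all counts in Braf Smarcb1 KO CKI libraries, against 15.5% to 21.6% in wild-type libraries. TMM factors were 1.15 to 1.25 in Braf Smarcb1 KO CKI libraries and 0.916 to 0.991 in wild-type libraries. A text of the labels names Smarcb1 and wild-type thyroids, but not Braf thyroids, among those frozen whole, and another text on every sample speaks of sorted YFP-positive cells. Both groups of the main comparison are thus named in the first text, whereas Braf CKI is not. In comparisons with Braf CKI this difference in collection cannot be told apart from genotype. The labels do not settle which text holds for which group, so collection may differ in the main comparison too.

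Smarcb1 itself stood at 18, 47.4 and 11.9 CPM in Braf Smarcb1 KO CKI thyroid, against 74.8, 152 and 111 CPM in wild type. The groups did not overlap, and reads of Smarcb1 remained in every knockout library, with replicate 2 highest. The log2 fold change was -2.13 ± 0.59, adjusted p = 0.00761, a call that was lost without Braf Smarcb1 KO CKI 4 (-1.73, adjusted p = 0.0512). Against Braf CKI thyroid, at 217, 187 and 194 CPM, it was -2.95 ± 0.61, adjusted p = 0.00188. The deposited counts are per gene, so a deleted exon cannot be seen in them.

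Over all genes tested, Braf Smarcb1 KO CKI libraries lay far from wild type. The distance between 2 libraries, taken as the root mean square difference of log2(CPM + 1), averaged 1.34 over the 9 pairs between the groups, with a range of 1.25 to 1.46. Within Braf Smarcb1 KO CKI the 3 pairs averaged 0.602, and within wild type 0.505, so the distance between groups exceeded every distance within them. Replicate 4 was farthest from wild type, at a mean of 1.44, against 1.32 for replicate 1 and 1.26 for replicate 2. Without drug, Braf Smarcb1 KO vehicle libraries lay 1.51 from wild type (1.44 to 1.59). Braf CKI libraries lay 1.06 from it (0.931 to 1.175) and Braf vehicle libraries 1.21 (1.08 to 1.39). The ranges to wild type overlapped narrowly between drug and vehicle in Smarcb1 knockout and did not overlap between Braf Smarcb1 KO CKI and Braf CKI. The range of Braf vehicle overlapped that of Braf Smarcb1 KO CKI. No test was made of these distances, which share the wild-type libraries.

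**Figure D1:**
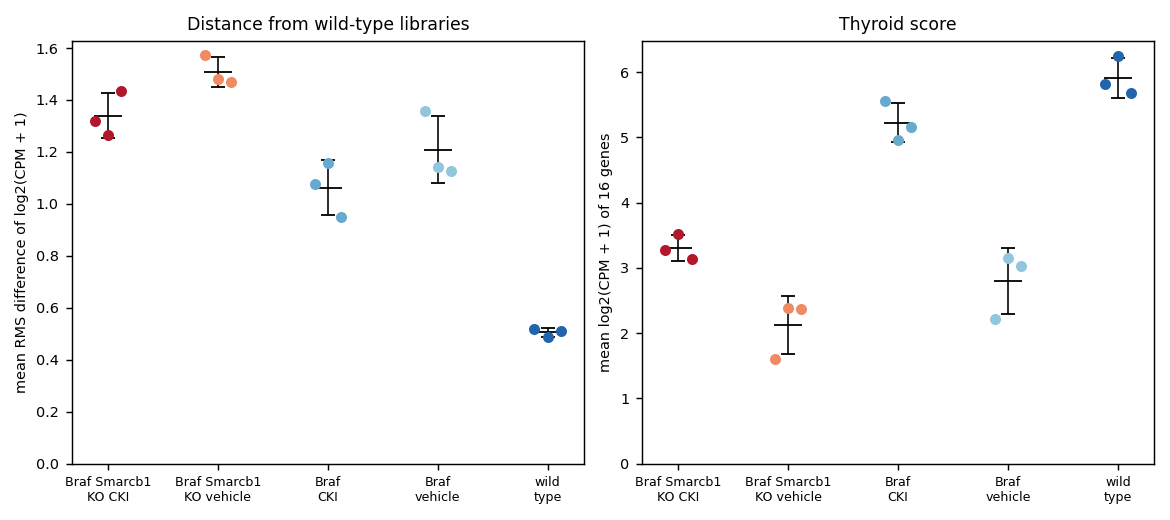
Left, mean root mean square difference of log2(CPM + 1) from each library to the wild-type libraries; right, thyroid score, the mean log2(CPM + 1) of 16 thyroid genes, by group; points are libraries, bars mean ± SD (n = 3). Braf Smarcb1 KO CKI libraries lie at 1.26 to 1.44 from wild type, above all 3 Braf CKI libraries. Their scores of 3.13 to 3.52 lie between those of Braf Smarcb1 KO vehicle and those of Braf CKI. They overlap those of Braf vehicle (2.22, 3.15 and 3.03).

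Of the 19016 genes tested, 6487 differed between Braf Smarcb1 KO CKI and wild type (34.1%), 3344 higher (17.6%) and 3143 lower (16.5%). An unadjusted p under 0.05 was reached by 8318. Of those called, 5789 differed by 2-fold or more and 1276 by 16-fold or more, 700 higher and 576 lower. The median log2 fold change of all genes tested was 0.01, and the lower and upper quartiles were -0.86 and 1.03. There were 241 called genes with no count in any wild-type library, and 55 with no count in any Braf Smarcb1 KO CKI library. TMM-scaled library sizes were 34410919 to 37719092 in Braf Smarcb1 KO CKI and 27210548 to 31245741 in wild type. At the same CPM, a gene is therefore likelier to have no count in wild type. The filter used all libraries fitted, so such genes could enter through other groups. Whether the gap between these gene counts exceeds these effects was not tested. The 3 libraries of one group all lay on one side of the 3 of the other in 10026 genes, 52.7% of those tested. From Braf CKI thyroid, 3243 genes differed (17.1%), 1496 higher (7.87%) and 1747 lower (9.19%). From Braf Smarcb1 KO vehicle thyroid, 732 differed (3.85%), 342 higher (1.8%) and 390 lower (2.05%). This count was 2 when only those 6 libraries were fitted and 1608 with DESeq2. All calls against vehicle given below are those of the main fit, and at most 2 of them held when only those 6 libraries were fitted. All 3 comparisons share the Braf Smarcb1 KO CKI libraries, so their values are given side by side and no overlap is drawn.

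**Figure D2:**
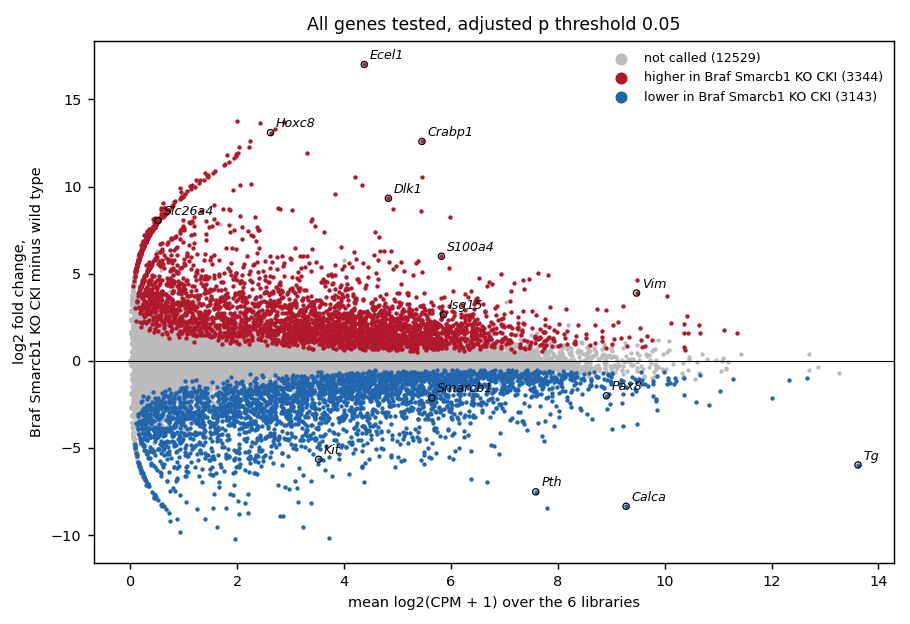
Log2 fold change of Braf Smarcb1 KO CKI minus wild type against the mean log2(CPM + 1) of the 6 libraries, 1 point a gene, coloured by call at an adjusted p under 0.05. Named genes are ringed; Tg stands far to the right at -5.97, and fitted values along the curved upper and lower edges belong to genes with almost no reads in one group and are no bounds.

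Most thyroid differentiation genes were below normal thyroid on drug. Of the 16 thyroid differentiation genes, 11 were lower than in wild type, 2 were higher and 3 did not pass the test, with a median log2 fold change of -2.76. Over all genes, 16.5% were lower and 17.6% higher. Tg, which encodes thyroglobulin, stood at 1884, 1901 and 1214 CPM in Braf Smarcb1 KO CKI thyroid, against 99412, 155494 and 58871 CPM in wild type. All 3 knockout libraries were lower by a wide margin (-5.97 ± 0.80, adjusted p = 1.18e-05). Under vehicle, Tg stood at 14.2, 114 and 71.4 CPM in Braf Smarcb1 KO thyroid, below the 3 on drug (4.65 ± 0.75, adjusted p = 0.00137). Braf CKI thyroid held 11536, 7268 and 19641 CPM, above them (-2.94 ± 0.69, adjusted p = 0.00529). Thus on drug Tg was above its level under vehicle, below that of Braf CKI and farther below wild type.

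The genes of iodide uptake and of the thyrotropin response differed in how far they were from wild type. Slc5a5, the sodium iodide symporter, stood at 17.5, 22.4 and 46.2 CPM in Braf Smarcb1 KO CKI thyroid, against 73.9, 280.2 and 114 CPM in wild type. Each knockout library was below each wild-type library, but the difference missed the threshold (-2.44 ± 1.04, adjusted p = 0.0728). Slc5a5 was below Braf CKI (321 ± 247 CPM, -3.48 ± 1.09, adjusted p = 0.03), and against 25.9 ± 13.5 CPM under vehicle the difference was 0.15 ± 0.99, adjusted p = 0.959. Its call against Braf CKI was lost without Braf CKI 1 or Braf Smarcb1 KO CKI 1, 2 or 4 (-2.63 to -4.03, adjusted p = 0.0566 to 0.127). Tshr, the thyrotropin receptor, stood at 8.92, 14.3 and 16.1 CPM in Braf Smarcb1 KO CKI thyroid, against 237, 369.7 and 194 CPM in wild type, with no overlap (-4.35 ± 0.46, adjusted p = 1.12e-06). Tshr was 412 ± 199.97 CPM in Braf CKI thyroid (-4.97 ± 0.48, adjusted p = 6.41e-07) and 3.31 ± 1.96 CPM under vehicle (1.99 ± 0.43, adjusted p = 0.0105). The call of Tshr against vehicle was lost without Braf Smarcb1 KO vehicle 1 (1.64, adjusted p = 0.0666).

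The oxidase, deiodinase and carrier genes included the 3 largest falls of the list, in Duox2, Dio1 and Slc5a8. Duox2, which supplies hydrogen peroxide for iodination, stood at 0.436, 0.451 and 0 CPM in Braf Smarcb1 KO CKI thyroid, against 24.6, 79.1 and 21.8 CPM in wild type (-7.13 ± 1.12, adjusted p = 6.40e-05), and its partner Duox1 averaged 0.309 ± 0.151 CPM in Braf Smarcb1 KO CKI thyroid and 7.35 ± 4.09 CPM in wild type (SD, n = 3 each; -4.55 ± 0.96, adjusted p = 9.95e-04). Dio1, a deiodinase, stood at 7.47, 19.5 and 2.93 CPM in Braf Smarcb1 KO CKI thyroid, against 855, 1636 and 1152 CPM in wild type (-6.93 ± 1.08, adjusted p = 5.53e-05). Slc5a8, an anion carrier of the follicular cell, stood at 1.42, 3.31 and 0.0267 CPM in Braf Smarcb1 KO CKI thyroid, against 179, 224 and 179 CPM in wild type (-6.93 ± 1.15, adjusted p = 1.09e-04). Neither Duox2 nor Slc5a8 differed from vehicle by the test (0.746 and 0.767 as adjusted p). Opposite in direction, Slc26a4, which encodes the apical iodide carrier pendrin, stood at 0.291, 1.38 and 1.79 CPM in Braf Smarcb1 KO CKI thyroid and had no count in wild type, at least 34.2-fold higher against a floor of 3 counts over the group (adjusted p = 0.00104). Dio2, another deiodinase, was also higher, at 1.63, 0.583 and 1.63 CPM in Braf Smarcb1 KO CKI thyroid, against 0.349, 0.294 and 0.16 CPM in wild type (2.24 ± 0.80, adjusted p = 0.0324), a call that was lost without Braf Smarcb1 KO CKI 1 or 4 or wild type 1, 2 or 3 (1.98 to 2.501, adjusted p = 0.0567 to 0.114).

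Among the transcription factors, Pax8 stood at 208, 272 and 253 CPM in Braf Smarcb1 KO CKI thyroid, against 1246, 1037 and 656 CPM in wild type (-2.005 ± 0.36, adjusted p = 2.55e-04). It was above vehicle (102, 78 and 53.8 CPM, 1.65 ± 0.36, adjusted p = 0.0119) and below Braf CKI (979, 593 and 869.7 CPM, -1.74 ± 0.36, adjusted p = 0.00202). Nkx2-1 stood at 14.8, 16.9 and 15.9 CPM in Braf Smarcb1 KO CKI thyroid, against 13.3, 10.9 and 7.01 CPM in wild type. Each knockout library was above each wild-type library, by an amount that did not pass the test (0.61 ± 0.43, adjusted p = 0.292). Foxe1 stood at 1.51, 2.12 and 0.614 CPM in Braf Smarcb1 KO CKI thyroid, against 4.54, 6.21 and 3.62 CPM in wild type (-1.75 ± 0.53, adjusted p = 0.0137), a call that was lost without Braf Smarcb1 KO CKI 4 (-1.35, adjusted p = 0.0857) and without wild type 2 (-1.52, adjusted p = 0.0551). Glis3, a zinc finger factor of thyroid development, was lower as well (-1.70 ± 0.57, adjusted p = 0.0232), and this call was lost without Braf Smarcb1 KO CKI 4 (-1.29, adjusted p = 0.122) and without wild type 2 (-1.497, adjusted p = 0.0746). Of the thyroid hormone receptors, Thrb was lower (-3.08 ± 0.70, adjusted p = 0.00188), and Thra, at -0.29, did not pass the test.

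The thyroid score put these genes together as their mean log2(CPM + 1). It was 3.28, 3.52 and 3.13 in Braf Smarcb1 KO CKI libraries, against 5.81, 6.25 and 5.68 in wild type, with no overlap. It averaged 2.12 ± 0.444 in Braf Smarcb1 KO vehicle, 5.23 ± 0.297 in Braf CKI and 2.80 ± 0.505 in Braf vehicle thyroid (SD, n = 3 each). The score on drug was thus above each vehicle library of its genotype and below each Braf CKI library. By gene, 6 of the 16 were higher than under vehicle (Tg, Tshr, Pax8, Foxe1 and Thra among them) and none lower, whereas 10 were lower than in Braf CKI and none higher. Over all genes, 1.8% were higher than under vehicle and 9.19% lower than in Braf CKI. The main count was 2 higher and 11 lower, and it was 1 higher and 11 lower without Braf Smarcb1 KO CKI 1 or wild type 1 or 3, and 1 higher and 9 lower without Braf Smarcb1 KO CKI 4 or wild type 2. Each library pools many cells, whether from whole tissue or from the YFP sort that a text of the labels names, so fewer follicular cells and less RNA of these genes per cell cannot be told apart.

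**Figure D3:**
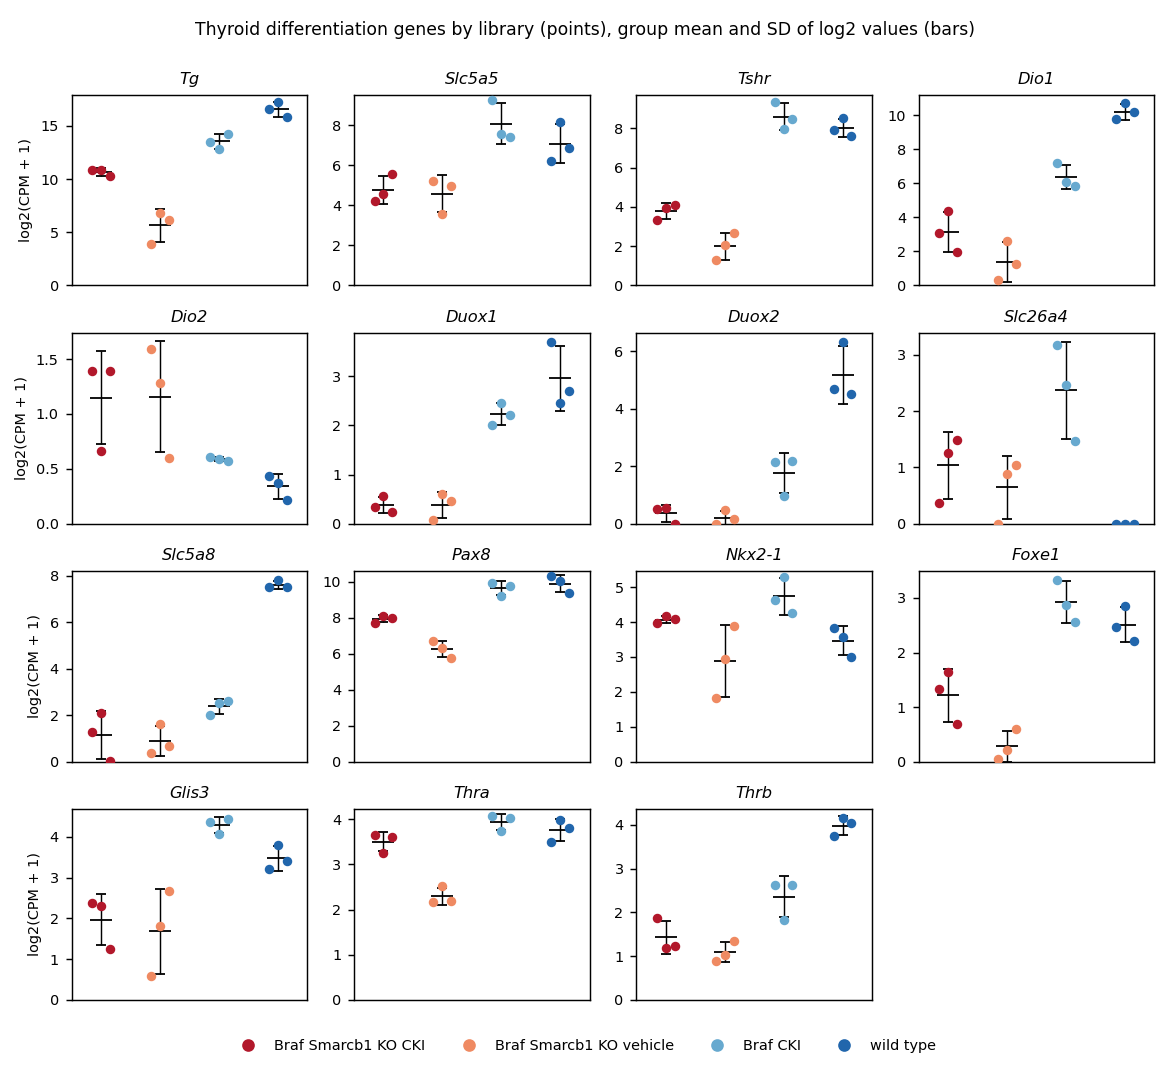
Log2(CPM + 1) of thyroid differentiation genes, 1 panel a gene, 1 point a library, bars mean ± SD of the log2 values (n = 3); groups from left to right are Braf Smarcb1 KO CKI, Braf Smarcb1 KO vehicle, Braf CKI and wild type, and each panel has its own axis. Tg, Tshr and Pax8 on drug lie between vehicle and wild type, Duox1 and Slc5a8 lie near vehicle, and Slc26a4 is at 0 in wild type.

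Genes that serve hormone handling around this core were lower too: 7 of the 9 accessory genes were lower than wild type and none was higher (median -3.91). Iyd, which recycles iodide from iodotyrosines, stood at 124, 274 and 48.1 CPM in Braf Smarcb1 KO CKI thyroid, against 2347, 2386 and 1975 CPM in wild type (-3.91 ± 0.57, adjusted p = 3.07e-05). Cdh16, a cadherin of the thyroid epithelium, stood at 37.3, 80.3 and 21.6 CPM in Braf Smarcb1 KO CKI thyroid, against 1403, 1119 and 851 CPM in wild type (-4.60 ± 0.61, adjusted p = 1.02e-05). Slc26a7, an anion carrier needed for iodide organification, stood at 7.7, 12.3 and 3.87 CPM in Braf Smarcb1 KO CKI thyroid, against 1122, 946 and 550.1 CPM in wild type (-6.77 ± 0.75, adjusted p = 1.59e-06). In each of these 3 genes no knockout library reached the lowest wild-type library, and 52.7% of all genes tested had no overlap. Duoxa1 and Duoxa2, the maturation factors of the Duox enzymes, were lower (-4.93 and -3.97). Against Braf CKI, 8 of the 9 were lower and 0 higher. Over all genes, 16.5% were lower than wild type, 9.19% lower than Braf CKI and 1.8% higher than vehicle. Against vehicle, 4 were higher and 0 lower, among them Cdh16 (3.77 ± 0.59, adjusted p = 0.00111) and Iyd (2.66 ± 0.54, adjusted p = 0.00745), and the call of Iyd was lost without Braf Smarcb1 KO CKI 2 (1.88, adjusted p = 0.061).

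Against wild type, genes that read out MEK and ERK signalling were called about as often on drug as genes at large. Of 19 such genes, 5 were higher than wild type, 3 were lower and 11 did not pass the test (median 0.67). The share called was 42.1%, against 34.1% over all genes. Dusp6, a phosphatase of ERK, stood at 150.4, 182 and 121 CPM in Braf Smarcb1 KO CKI thyroid, against 123, 207 and 227 CPM in wild type. The groups overlapped (-0.30 ± 0.44, adjusted p = 0.638). Spry4, a feedback inhibitor of receptor signalling, stood at 31.8, 21.6 and 48.1 CPM in Braf Smarcb1 KO CKI thyroid, against 10.5, 21.7 and 31.3 CPM in wild type, with overlap (0.67 ± 0.44, adjusted p = 0.244). Spry4 was 225, 184 and 113 CPM under vehicle, above all 3 libraries on drug (-2.36 ± 0.46, adjusted p = 0.00519). The ETS factor Etv5 was lower than in wild type, at 12, 7.53 and 7.44 CPM in Braf Smarcb1 KO CKI thyroid, against 24.2, 31.6 and 20.9 CPM in wild type (-1.51 ± 0.46, adjusted p = 0.0143), a call that was lost without Braf Smarcb1 KO CKI 4 (-1.34, adjusted p = 0.0631) and without wild type 2 (-1.32, adjusted p = 0.0518). Ccnd1, which encodes cyclin D1, had the largest rise of the list, at 335, 368 and 261 CPM in Braf Smarcb1 KO CKI thyroid, against 35, 34.8 and 48.8 CPM in wild type (3.02 ± 0.51, adjusted p = 1.16e-04), although below vehicle (1498, 1732 and 600.4 CPM, -1.99 ± 0.49, adjusted p = 0.0228), a call that was lost without Braf Smarcb1 KO CKI 1, 2 or 4 or Braf Smarcb1 KO vehicle 1 or 2 (-1.70 to -2.09, adjusted p = 0.0613 to 0.0858). Spred1, an inhibitor of Ras signalling, was higher (1.20 ± 0.24, adjusted p = 6.56e-04). The counts of the list were 5 higher and 1 lower without Braf Smarcb1 KO CKI 1, 3 higher and 0 lower without Braf Smarcb1 KO CKI 4, 3 higher and 2 lower without wild type 1, 2 higher and 1 lower without wild type 2, and 2 higher and 2 lower without wild type 3. Against vehicle, 6 of the 19 were lower and 0 higher, where 2.05% of all genes were lower. Against Braf CKI, 5 of the 19 were lower and 0 higher, where 9.19% of all genes were lower. Among the lower were Dusp4 (-3.64 ± 0.79, adjusted p = 0.00278) and Dusp6 (-1.62 ± 0.45, adjusted p = 0.016). The call of Dusp6 was lost without Braf Smarcb1 KO CKI 1 (-1.63, adjusted p = 0.0535) and without Braf Smarcb1 KO CKI 4 (-1.49, adjusted p = 0.0727).

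Receptor tyrosine kinases and their ligands moved both ways, with 5 higher and 6 lower of 18 (61.1% called, against 34.1% over all genes). Nrg1, a ligand of Erbb3 and Erbb4, stood at 99.2, 90.3 and 196 CPM in Braf Smarcb1 KO CKI thyroid, against 1.54, 3.42 and 4.13 CPM in wild type (5.40 ± 0.69, adjusted p = 6.33e-06). Ereg, a ligand of Egfr, stood at 247, 318 and 119 CPM in Braf Smarcb1 KO CKI thyroid, against 5.48, 2.46 and 5.6 CPM in wild type (5.65 ± 0.63, adjusted p = 1.59e-06). Both lay far above wild type in every library. Fgfr1 stood at 88.1, 31.4 and 123 CPM in Braf Smarcb1 KO CKI thyroid, against 8.03, 8.71 and 10.9 CPM in wild type (3.13 ± 0.53, adjusted p = 1.42e-04), whereas Fgfr2 stood at 11.6, 17.6 and 5.5 CPM in Braf Smarcb1 KO CKI thyroid, against 53.1, 57.2 and 38.2 CPM in wild type (-2.10 ± 0.47, adjusted p = 0.0018), so these paralogous receptors differed from wild type in opposite directions. Erbb3, Erbb4 and Ret were lower (-2.19, -3.56 and -2.96). Kit, the receptor of stem cell factor, stood at 0.93, 1.11 and 1.87 CPM in Braf Smarcb1 KO CKI thyroid, against 97.3, 74 and 25.7 CPM in wild type (-5.65 ± 0.72, adjusted p = 6.88e-06). Nrg1 and Fgfr1 were also higher than in Braf CKI (3.24 ± 0.62, adjusted p = 0.00101 and 2.27 ± 0.52, adjusted p = 0.00402).

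Cell cycle genes were above wild type in part. Of 16 genes of mitosis, 7 were higher and none lower (median 1.82), and of 16 of DNA replication, 5 were higher and none lower (median 0.31). The shares called were 43.75% and 31.25%, against 34.1% over all genes, where 17.6% were higher. Cdk1, the mitotic kinase, stood at 29.8, 38.9 and 44.9 CPM in Braf Smarcb1 KO CKI thyroid, against 9.25, 1.43 and 2.94 CPM in wild type (3.06 ± 0.66, adjusted p = 0.00125). Cdc20, an activator of the anaphase complex, stood at 17.1, 20.3 and 30.4 CPM in Braf Smarcb1 KO CKI thyroid, against 2.48, 2.39 and 1.82 CPM in wild type (3.34 ± 0.57, adjusted p = 1.35e-04). Mki67, the proliferation marker, stood at 3.28, 3.29 and 11 CPM in Braf Smarcb1 KO CKI thyroid, against 4.15, 0.551 and 1.28 CPM in wild type. It overlapped between groups (1.55 ± 0.72, adjusted p = 0.103), and wild type 1 was the highest of its group. Cdt1, a licensing factor of replication, stood at 50.2, 35.8 and 26.5 CPM in Braf Smarcb1 KO CKI thyroid, against 0.838, 1.62 and 1.38 CPM in wild type (4.87 ± 0.52, adjusted p = 1.12e-06). The mitosis counts moved with single libraries and were 2 higher and 0 lower without Braf Smarcb1 KO CKI 4 or wild type 2 or 3, and 12 higher and 0 lower without wild type 1. Relative to vehicle, 7 genes of mitosis and 5 of DNA replication were lower and none of either was higher, against 2.05% lower over all genes. Rrm2, a subunit of ribonucleotide reductase, was among them, at 13.8, 18.7 and 27.6 CPM on drug and 188, 246 and 49.2 CPM under vehicle (-3.01 ± 0.60, adjusted p = 0.00654).

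Inhibitors of the cell cycle were among the genes that rose. Of 11 cyclins, cyclin kinases and inhibitors, 5 were higher than wild type and none lower (45.5% called, against 34.1% over all genes). Cdkn2a, the locus of p16 and p19Arf, had 6.6, 2.47 and 3.09 CPM in Braf Smarcb1 KO CKI thyroid, against 0, 0 and 0.064 CPM in wild type, a ratio of knockout to wild type of 173 (95% counting interval 47.7 to 1435). Its neighbour Cdkn2b, the locus of p15, stood at 79.1, 62.4 and 62.2 CPM in Braf Smarcb1 KO CKI thyroid, against 1.57, 4.7 and 3.36 CPM in wild type (4.40 ± 0.78, adjusted p = 2.04e-04). Cdkn2c was higher too (1.54 ± 0.30, adjusted p = 5.79e-04). Cdkn1a, the locus of p21, was higher at 1.37, a call that was lost without wild type 1 (1.26, adjusted p = 0.0516) and without wild type 2 (1.14, adjusted p = 0.0633). Of 12 apoptosis genes, 3 were called (25%, against 34.1% over all genes). Bax and Bbc3, which promote cell death, were higher (2.01 ± 0.28, adjusted p = 2.01e-05 and 2.17 ± 0.50, adjusted p = 0.00215), and Bcl2, which opposes it, was lower (-2.24 ± 0.39, adjusted p = 1.62e-04).

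By a rule of size, 12 rises were named, and 11 of these genes had no count in wild type. The rule took the 12 largest fitted log2 fold changes among called genes that reached a mean of 5 CPM on the higher side and whose groups did not overlap. Fitted values place genes at 0 in wild type high, so their number follows in part from the rule. Ecel1, a neuronal endopeptidase, stood at 325, 207 and 1189.7 CPM in Braf Smarcb1 KO CKI thyroid, against 0 in all wild-type libraries, at least 16845-fold higher (adjusted p = 9.42e-07). Crabp1, a carrier of retinoic acid, stood at 1730.5, 1224 and 1772 CPM in Braf Smarcb1 KO CKI thyroid, against 0.0349, 0.331 and 0.384 CPM in wild type (12.59 ± 0.92, adjusted p = 1.36e-08). Rorb, an orphan nuclear receptor of retina and brain, stood at 44.9, 30.2 and 54.4 CPM in Braf Smarcb1 KO CKI thyroid, against 0 in wild type, at least 1252-fold higher (adjusted p = 1.04e-07). Dlx1, a homeobox factor of forebrain and craniofacial development, stood at 25.8, 13.5 and 24.5 CPM in Braf Smarcb1 KO CKI thyroid, against 0 in wild type, at least 613-fold higher (adjusted p = 5.09e-05). These 4 genes had reads in all 3 knockout libraries, which follows for all 12 from the rule of no overlap.

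The levels of other rises of this rule varied among the knockout libraries. Cyp24a1, which degrades active vitamin D, stood at 2.06, 6.55 and 175 CPM, and Cckbr, a cholecystokinin receptor, at 20.9, 6.87 and 139.7 CPM, both with replicate 4 far above the others and no count in wild type (at least 1823-fold and 1646-fold higher). Crhbp, which binds corticotropin-releasing hormone, was at least 629-fold higher, with its highest level in replicate 4 as well (12.4, 6.47 and 45.5 CPM). Fam5c, at 52.1, 29.9 and 95.2 CPM, and Lingo2, at 25.8, 7.53 and 48 CPM, were at least 1718-fold and 786-fold higher. Klhl1, at 8.11, 15.6 and 27.8 CPM, and the choline transporter Slc5a7, at 25.5, 7.71 and 14.9 CPM, were at least 505-fold and 457-fold higher. The remaining gene of the 12 was Hoxc8, whose levels are given with the Hox genes. Of the 12, Ecel1 was higher than under vehicle (51.6, 88.3 and 124 CPM, 2.70 ± 0.63, adjusted p = 0.0287), a call that was lost without Braf Smarcb1 KO CKI 4 or Braf Smarcb1 KO vehicle 1 or 2 (1.59 to 2.72, adjusted p = 0.084 to 0.157). The other 11, Hoxc8 included, did not pass the test against vehicle.

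Hox genes, which set position along the body axis in the embryo, rose in most cases. Of 20 tested, 16 were higher than wild type and none lower, with a median log2 fold change of 5.06, or 4.40 when genes at 0 in wild type are set to their bound, against 17.6% higher over all genes. Hoxc8 stood at 35.1, 51.8 and 27.5 CPM in Braf Smarcb1 KO CKI thyroid, against 0 in wild type, at least 1110.5-fold higher (adjusted p = 1.57e-05). Hoxa5, a gene of lung and thyroid development in mice, stood at 43, 30.3 and 24.9 CPM in Braf Smarcb1 KO CKI thyroid, against 0.523, 0.441 and 0.992 CPM in wild type (5.64 ± 0.90, adjusted p = 7.16e-05). Hoxb6 stood at 58.1, 129 and 113 CPM in Braf Smarcb1 KO CKI thyroid, against 1.26, 2.5 and 3.3 CPM in wild type (5.41 ± 0.76, adjusted p = 1.97e-05). Hoxc4 stood at 25.9, 54.1 and 85.9 CPM in Braf Smarcb1 KO CKI thyroid, against 0.349, 1.18 and 1.89 CPM in wild type (5.59 ± 0.73, adjusted p = 8.87e-06). Hoxc6 had 8.98, 6.79 and 7.55 CPM on drug and 1 read in all of wild type, a ratio of knockout to wild type of 674 (95% counting interval 121 to 26649). In these 5 genes no library of one group reached the other group, as in 52.7% of all genes tested.

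Among the Hox genes not called, Hoxd8 (-0.65) and Hoxd9 (3.33) overlapped between groups and did not pass the test, with Hoxd9 at 0.32, 0.0265 and 4.54 CPM on drug. Hoxa4 lay above wild type in all 3 libraries without passing the test (2.05 ± 0.99, adjusted p = 0.113). Of the 20, 13 were higher than in Braf CKI and none lower, against 7.87% higher over all genes. Relative to vehicle, 4 were higher and none lower: Hoxa2 (3.06 ± 0.71, adjusted p = 0.0186), Hoxa5 (3.16 ± 0.79, adjusted p = 0.0258), Hoxb5 (1.82 ± 0.46, adjusted p = 0.0261) and Hoxc4 (3.01 ± 0.64, adjusted p = 0.0105). Over all genes, 1.8% were higher than under vehicle. Each of these 4 Hox calls rested on single libraries. The call of Hoxa2 was lost without Braf Smarcb1 KO vehicle 1 (2.78, adjusted p = 0.102) and without Braf Smarcb1 KO vehicle 2 (3.20, adjusted p = 0.0531), and that of Hoxc4 was lost without Braf Smarcb1 KO vehicle 1 (2.98, adjusted p = 0.0596). The call of Hoxa5 was lost without Braf Smarcb1 KO CKI 1 or 2 or Braf Smarcb1 KO vehicle 1, 2 or 3 (2.92 to 3.33, adjusted p = 0.0552 to 0.124), and that of Hoxb5 was lost without Braf Smarcb1 KO CKI 1 or 4 or Braf Smarcb1 KO vehicle 1 or 2 (1.52 to 1.94, adjusted p = 0.0556 to 0.125). Neighbouring Hox genes overlap and are transcribed on both strands in places, and strand is not stated, so reads of neighbours may be counted together.

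**Figure D4:**
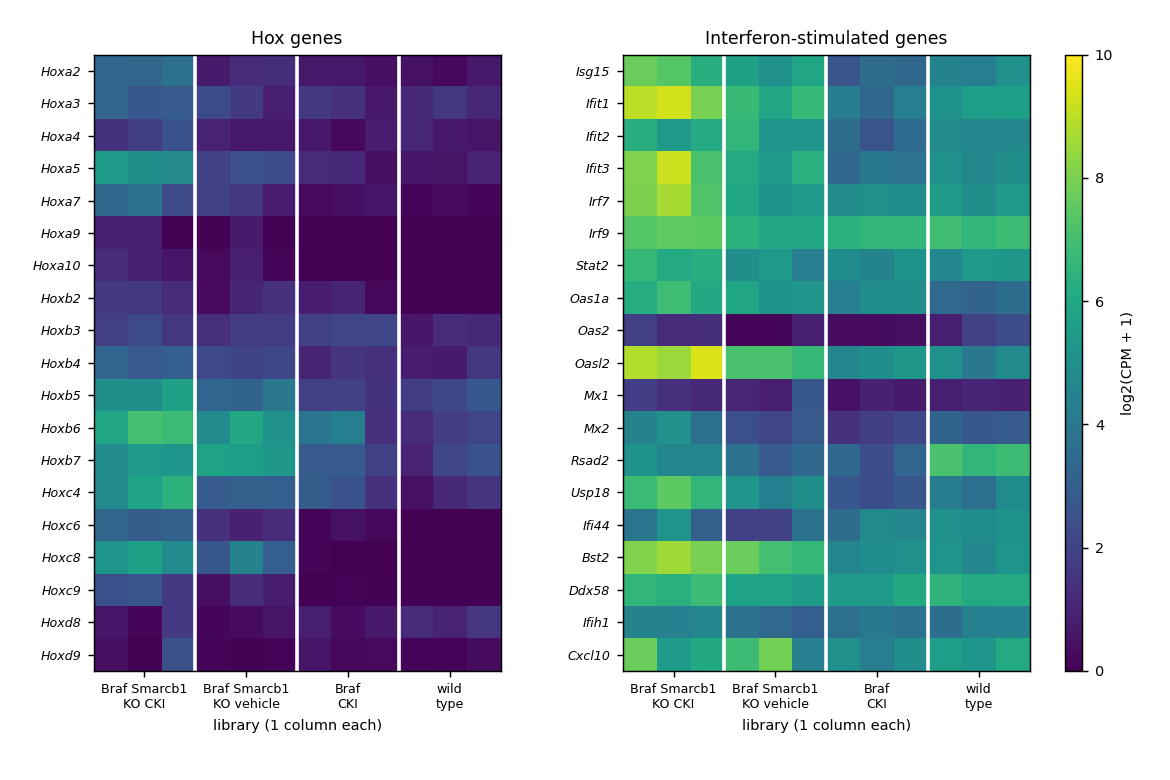
Log2(CPM + 1) by library for Hox genes (left) and interferon-stimulated genes (right); each column is 1 library, and groups from left to right are Braf Smarcb1 KO CKI, Braf Smarcb1 KO vehicle, Braf CKI and wild type, on 1 colour scale. Most rows of both maps are brightest in the first 3 columns, and Rsad2 is brightest in wild type.

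LIM homeobox genes, which specify cell types in the embryo, were called in both directions. Of 8 tested, 3 were higher and 2 lower, and their median was 0.85, or -0.70 with genes at 0 set to their bound. The share called was 62.5%, against 34.1% over all genes. Lhx9 stood at 5.43, 2.7 and 5.18 CPM in Braf Smarcb1 KO CKI thyroid, against 0 in wild type, at least 128-fold higher (adjusted p = 1.38e-04). Isl1, a factor of endocrine cells, stood at 4.88, 9.6 and 3.09 CPM in Braf Smarcb1 KO CKI thyroid, against 14.8, 39.2 and 33 CPM in wild type (-2.31 ± 0.68, adjusted p = 0.0115), a call that was lost without Braf Smarcb1 KO CKI 1 (-2.14, adjusted p = 0.054) and without Braf Smarcb1 KO CKI 4 (-1.95, adjusted p = 0.0666). The counts of the list were 2 higher and 0 lower without Braf Smarcb1 KO CKI 1, 3 higher and 0 lower without Braf Smarcb1 KO CKI 4, 2 higher and 1 lower without wild type 1, and 3 higher and 1 lower without wild type 3.

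Oncofetal genes, active in embryos and again in tumours, were higher in 7 of 9 and lower in none (median 3.89, or 3.67 with bounds). The share called was 77.8%, against 34.1% over all genes. Hmga2, a chromatin protein, stood at 12.1, 14.2 and 19.7 CPM in Braf Smarcb1 KO CKI thyroid, against 1.43, 1.03 and 0.64 CPM in wild type (3.89 ± 0.43, adjusted p = 1.43e-06), below vehicle (129, 82 and 96.8 CPM, -2.74 ± 0.39, adjusted p = 6.04e-04). Dlk1, a Notch-like ligand, stood at 333, 741 and 399.6 CPM in Braf Smarcb1 KO CKI thyroid, against 0.768, 0.478 and 1.02 CPM in wild type (9.33 ± 1.21, adjusted p = 8.44e-06), and Braf CKI thyroid held 1045, 1929 and 967 CPM (-1.42 ± 0.85, adjusted p = 0.282). Igf2bp3, which binds Igf2 mRNA, stood at 10.6, 5.2 and 6.88 CPM in Braf Smarcb1 KO CKI thyroid, against 0.174, 0.625 and 0.192 CPM in wild type (4.51 ± 0.82, adjusted p = 2.67e-04). The imprinted RNA H19 stood at 29.7, 11.3 and 11.1 CPM in Braf Smarcb1 KO CKI thyroid, against 0, 0.294 and 0.48 CPM in wild type (6.04 ± 1.29, adjusted p = 0.00116). Igf2 itself overlapped between groups (-0.96 ± 0.97, adjusted p = 0.471). Igf2bp1 was above wild type (2.14 ± 0.59, adjusted p = 0.0075) and below Braf CKI (-2.38 ± 0.58, adjusted p = 0.00657).

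Neuronal genes split. Of 14, 5 were higher than wild type and 3 lower (57.1% called, against 34.1% over all genes). Tubb3, a neuronal tubulin, stood at 77, 61.1 and 148 CPM in Braf Smarcb1 KO CKI thyroid, against 2.06, 3.38 and 8.67 CPM in wild type (4.34 ± 0.77, adjusted p = 2.06e-04). The neurofilament Nefl stood at 14.6, 9.09 and 11.4 CPM in Braf Smarcb1 KO CKI thyroid, against 0, 0.147 and 0.224 CPM in wild type (6.50 ± 1.002, adjusted p = 9.83e-05), and its partner Nefm at 5.81, 3.9 and 2.88 CPM in Braf Smarcb1 KO CKI thyroid, against 0, 0.0735 and 0.032 CPM in wild type, a ratio of knockout to wild type of 121 (95% counting interval 41 to 587). Stmn3 and Dcx, microtubule proteins of neurons, were lower (-5.65 ± 1.15, adjusted p = 7.71e-04 and -4.82 ± 1.01, adjusted p = 9.73e-04), and Snap25, of the synaptic vesicle machinery, overlapped (-1.21 ± 0.87, adjusted p = 0.296). Relative to Braf CKI, 11 of the 14 were higher and none lower, against 7.87% higher over all genes. Snap25 was among them, at 18.9, 29.7 and 7.9 CPM on drug with Smarcb1 loss and 0.292, 0.211 and 0.379 CPM in Braf CKI thyroid (5.97 ± 1.11, adjusted p = 8.23e-04). Neuroendocrine C cells also express some of these genes: 5 of 6 C cell markers were lower than in wild type, with a summed level of 221 to 279 CPM in Braf Smarcb1 KO CKI libraries, against 8402 to 32716 CPM in wild-type libraries. Their part in these differences was not tested. The counts of the neuronal list were 3 higher and 3 lower without wild type 1 or 2.

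Mesenchymal genes were called higher more often than lower. Of 14 genes of mesenchymal transition, 6 were higher and 1 lower (50% called, against 34.1% over all genes). Vim, an intermediate filament, stood at 2579, 2518 and 3679.5 CPM in Braf Smarcb1 KO CKI thyroid, against 113, 137 and 341 CPM in wild type (3.89 ± 0.58, adjusted p = 3.84e-05). S100a4, a calcium-binding protein of motile cells, stood at 468, 425 and 443 CPM in Braf Smarcb1 KO CKI thyroid, against 7.78, 2.68 and 10.4 CPM in wild type (6.0 ± 0.78, adjusted p = 7.73e-06). Both groups stood fully apart, as in 52.7% of all genes tested. Both genes were above Braf CKI (3.19 ± 0.56, adjusted p = 5.34e-04 and 4.86 ± 0.73, adjusted p = 1.20e-04). Cdh2, or N-cadherin, stood at 19.9, 16.8 and 9.58 CPM in Braf Smarcb1 KO CKI thyroid, against 0.209, 0.625 and 0.448 CPM in wild type (5.16 ± 0.88, adjusted p = 1.34e-04). Twist1 stood at 3.6, 3.39 and 5.84 CPM in Braf Smarcb1 KO CKI thyroid, against 0.0349, 0 and 0.288 CPM in wild type (5.22 ± 1.04, adjusted p = 6.01e-04). Snai1, Snai2, Zeb1 and Prrx1 did not pass the test. Fn1, or fibronectin, stood at 70.6, 117 and 1042 CPM in Braf Smarcb1 KO CKI thyroid, against 36.4, 50.2 and 26 CPM in wild type (3.45 ± 0.98, adjusted p = 0.00939), with replicate 4 far above the others, and the call was lost without Braf Smarcb1 KO CKI 4 (1.38, adjusted p = 0.23). Of 10 fibroblast markers, 1 was higher and none lower (10% called). Their summed level was 1543 to 13946 CPM in Braf Smarcb1 KO CKI libraries, against 802 to 1509 CPM in wild-type libraries. Their counts were 3 higher and 0 lower without Braf Smarcb1 KO CKI 2, and 0 higher and 0 lower without Braf Smarcb1 KO CKI 4 or wild type 2 or 3, and their part in the result was not tested.

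Of 15 epithelial junction genes, 7 were lower and 2 higher (60% called, against 34.1% over all genes). Esrp1, an epithelial splicing regulator, stood at 7.18, 12.1 and 3.25 CPM in Braf Smarcb1 KO CKI thyroid, against 96.7, 99.7 and 61.6 CPM in wild type (-3.52 ± 0.39, adjusted p = 1.61e-06). Ocln, or occludin, stood at 9.18, 21.8 and 5.34 CPM in Braf Smarcb1 KO CKI thyroid, against 166, 89.6 and 90.7 CPM in wild type (-3.25 ± 0.67, adjusted p = 8.44e-04). Dsp, or desmoplakin, stood at 13.8, 10.9 and 2.88 CPM in Braf Smarcb1 KO CKI thyroid, against 64.8, 75.5 and 45.2 CPM in wild type (-2.75 ± 0.60, adjusted p = 0.00139). Grhl2, a transcription factor of epithelia, was lower as well (-2.11 ± 0.45, adjusted p = 0.00111). Epcam, an adhesion molecule of epithelial cells, stood at 77.5, 104.7 and 40.4 CPM in Braf Smarcb1 KO CKI thyroid, against 53.7, 59.7 and 49 CPM in wild type and overlapped (0.45 ± 0.85, adjusted p = 0.713). In the opposite direction, Cldn1, a claudin of tight junctions, was higher (2.42 ± 0.54, adjusted p = 0.00173). Cdh1, or E-cadherin, stood at 198, 206 and 334 CPM in Braf Smarcb1 KO CKI thyroid, against 437, 632 and 446 CPM in wild type (-1.04 ± 0.30, adjusted p = 0.00958), a call that was lost without Braf Smarcb1 KO CKI 1 (-0.86, adjusted p = 0.0607) and without wild type 2 (-0.84, adjusted p = 0.0545). It was above vehicle (68.8, 119 and 107 CPM, 1.33 ± 0.30, adjusted p = 0.0148), a call that was lost without Braf Smarcb1 KO CKI 4 (1.04, adjusted p = 0.0748) and without Braf Smarcb1 KO vehicle 1 (1.14, adjusted p = 0.0889), and below Braf CKI (-1.60 ± 0.30, adjusted p = 9.18e-04). Relative to Braf CKI, 10 of the 15 were lower and 2 higher, where 9.19% of all genes were lower and 7.87% higher. Of 9 epidermal genes only Trp63, a factor of basal cells, was called, and it was lower (-3.49 ± 0.56, adjusted p = 7.44e-05).

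Keratins were lower in 5 of 11 and higher in 1 (54.5% called, against 34.1% over all genes). Krt18, of simple epithelia, stood at 234, 685 and 128 CPM in Braf Smarcb1 KO CKI thyroid, against 1442, 1189 and 1299 CPM in wild type (-1.91 ± 0.59, adjusted p = 0.0152), a call that was lost without Braf Smarcb1 KO CKI 1 (-1.64, adjusted p = 0.0806) and without Braf Smarcb1 KO CKI 4 (-1.46, adjusted p = 0.0884). Krt20 was the exception, at 22.1, 44.6 and 2.83 CPM in Braf Smarcb1 KO CKI thyroid, against 0.0349, 0.11 and 0.064 CPM in wild type (8.30 ± 1.20, adjusted p = 2.59e-05). The counts of the list were 1 higher and 1 lower without Braf Smarcb1 KO CKI 1 or 4, 1 higher and 3 lower without wild type 1, and 1 higher and 2 lower without wild type 3. Relative to Braf CKI, 5 were lower and 0 higher, against 9.19% lower over all genes. Krt8 was among the lower, at 253, 668 and 225 CPM with Smarcb1 loss and 2425, 2758 and 2559 CPM in Braf CKI (-2.76 ± 0.53, adjusted p = 0.00111).

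Some genes of lung-type secretion were far above normal thyroid. Of 12, 5 were higher and 1 lower (50% called, against 34.1% over all genes). Sftpd, a surfactant protein, stood at 514, 1339 and 69.8 CPM in Braf Smarcb1 KO CKI thyroid, against 2.02, 1.18 and 1.34 CPM in wild type (8.72 ± 1.09, adjusted p = 5.75e-06). Sftpa1 stood at 1145, 2941 and 129 CPM in Braf Smarcb1 KO CKI thyroid, against 7.05, 3.75 and 2.82 CPM in wild type (8.27 ± 1.22, adjusted p = 3.34e-05). Sftpb stood at 118, 231 and 36 CPM in Braf Smarcb1 KO CKI thyroid, against 1.99, 0.845 and 1.25 CPM in wild type (6.55 ± 0.88, adjusted p = 1.26e-05). Replicate 4 was lowest of its group in all 3, yet above each wild-type library. Scgb3a1, a secretoglobin, and Lamp3, a lysosomal protein of secretory cells, were higher (5.86 ± 1.42, adjusted p = 0.00301 and 7.37 ± 1.53, adjusted p = 8.84e-04). Braf CKI thyroid also held these genes, with Sftpd at 1052, 3044 and 1331 CPM (-1.497 ± 0.79, adjusted p = 0.213) and Sftpb at 572, 1016 and 906 CPM (-2.69 ± 0.73, adjusted p = 0.0131). The call of Sftpb against Braf CKI was lost without Braf Smarcb1 KO CKI 1 (-2.63, adjusted p = 0.0561) and without Braf Smarcb1 KO CKI 4 (-2.24, adjusted p = 0.0676). Abca3, a lipid carrier of surfactant, was the single lower gene (-1.5 ± 0.50, adjusted p = 0.0225), and its call was lost without Braf Smarcb1 KO CKI 1 or 2 or wild type 2 (-1.17 to -1.42, adjusted p = 0.0727 to 0.105). The 2 defining genes of lung epithelium Sftpc and Scgb1a1 overlapped between groups, at -2.11 and 0.24.

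Genes of TGF-beta signalling and of the matrix were higher in part and lower in none. Of 13 TGF-beta genes, 9 were higher and none lower (median 1.88), and of 16 collagens and matrix genes, 6 were higher and none lower (median 2.05). The shares called were 69.2% and 37.5%, against 34.1% over all genes, where 17.6% were higher. Tgfb3, a ligand, stood at 235, 262 and 235 CPM in Braf Smarcb1 KO CKI thyroid, against 48, 31 and 46.1 CPM in wild type (2.55 ± 0.52, adjusted p = 7.26e-04), and its receptor subunit Tgfbr2 was higher (2.04 ± 0.48, adjusted p = 0.00225). Inhba, which encodes the activin A subunit, stood at 45.9, 69.9 and 46 CPM in Braf Smarcb1 KO CKI thyroid, against 2.48, 1.58 and 3.52 CPM in wild type (4.41 ± 0.73, adjusted p = 1.01e-04). Tgfbi, a matrix protein induced by TGF-beta, stood at 207, 227 and 182 CPM in Braf Smarcb1 KO CKI thyroid, against 27.1, 33.7 and 91 CPM in wild type (2.02 ± 0.43, adjusted p = 0.00111) and was well below Braf CKI (1192, 1348 and 1365 CPM, -2.66 ± 0.44, adjusted p = 2.78e-04). Timp1, an inhibitor of matrix proteases, stood at 365, 242 and 118 CPM in Braf Smarcb1 KO CKI thyroid, against 3.52, 1.43 and 4.35 CPM in wild type (6.28 ± 0.70, adjusted p = 1.69e-06), below vehicle (2213, 1910.2 and 1415 CPM, -2.93 ± 0.60, adjusted p = 0.0074). Col5a2 stood at 648, 445 and 1024 CPM in Braf Smarcb1 KO CKI thyroid, against 28.4, 13.5 and 26.3 CPM in wild type (4.96 ± 0.70, adjusted p = 2.30e-05). Col3a1 stood at 2743, 832 and 11827 CPM in Braf Smarcb1 KO CKI thyroid, against 538, 215 and 438 CPM in wild type, with replicate 4 highest (3.69 ± 1.19, adjusted p = 0.0192), and its call was lost without Braf Smarcb1 KO CKI 4 or wild type 2 or 3 (2.21 to 3.77, adjusted p = 0.0554 to 0.151). Col1a1 and Col1a2 lay above wild type in all 3 libraries without passing the test (0.0535 and 0.063 as adjusted p).

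Among interferon-stimulated genes, 12 of 20 were higher than wild type and 11 higher than under vehicle, against 17.6% and 1.8% of all genes. Interferon is known to switch on the listed genes through a complex that contains Stat2 and Irf9 and binds a DNA element in their promoters. The core of that element was searched as GAAANNGAAA, on both strands and with overlapping matches counted, from 250 bases before to 50 after the start of each gene in RefSeq promoters of mouse build GRCm38.p6. The table held promoters for 15 of the 20 listed genes, and 10 of them had a match, 66.7%, against 1131 of all 32851 promoters of full length, 3.44%. The first share counts genes and the second counts promoters. A match is a description of these letters and not a site shown to be bound. Stat2, Ddx58 and Cxcl10 were among the other genes with a match, and Ddx58 and Cxcl10 overlapped between Braf Smarcb1 KO CKI and wild type. Whether a match goes with a rise was not tested. The stretches below carry the match nearest the far end of the window, in capitals (GAAANNGAAA, or TTTCNNTTTC where the match is on the opposite strand), for 5 genes that were called higher and for Rsad2, the only listed gene called lower, each written 5′ to 3′ in the direction of the gene. The stretches lie at chr4:156200857-156200926 on the minus strand (Isg15), chr19:34640755-34640824 on the plus strand (Ifit1), chr19:34583343-34583412 on the plus strand (Ifit3), chr5:120907506-120907575 on the minus strand (Oas1a), chr8:71537563-71537632 on the minus strand (Bst2), chr12:26456533-26456602 on the minus strand (Rsad2).
Isg15: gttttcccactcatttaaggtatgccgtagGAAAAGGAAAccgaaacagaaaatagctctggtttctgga
Ifit1: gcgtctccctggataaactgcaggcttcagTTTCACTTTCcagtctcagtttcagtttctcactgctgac
Ifit3: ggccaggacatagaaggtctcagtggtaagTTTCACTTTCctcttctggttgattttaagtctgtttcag
Oas1a: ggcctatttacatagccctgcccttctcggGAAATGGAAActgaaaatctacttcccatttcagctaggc
Bst2: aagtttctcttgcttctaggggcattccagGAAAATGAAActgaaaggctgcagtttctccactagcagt
Rsad2: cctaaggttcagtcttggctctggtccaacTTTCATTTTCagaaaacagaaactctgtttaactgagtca

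Isg15, a ubiquitin-like modifier, stood at 209, 163 and 75.9 CPM in Braf Smarcb1 KO CKI thyroid, against 21.4, 18.3 and 32.4 CPM in wild type (2.64 ± 0.38, adjusted p = 2.80e-05). Ifit1 stood at 512, 633 and 249 CPM in Braf Smarcb1 KO CKI thyroid, against 33.4, 46 and 49.6 CPM in wild type (3.43 ± 0.46, adjusted p = 1.27e-05). Ifit3, its partner in binding viral RNA, stood at 268, 601 and 137 CPM in Braf Smarcb1 KO CKI thyroid, against 31.3, 22.9 and 29.6 CPM in wild type (3.58 ± 0.46, adjusted p = 7.49e-06). Every knockout library exceeded every wild-type library in these 3, where 52.7% of all genes tested had no overlap. Replicate 4 was lowest of the 3 on drug. Oas1a, an oligoadenylate synthetase, stood at 71.2, 119 and 64.9 CPM in Braf Smarcb1 KO CKI thyroid, against 9.56, 8.09 and 11.3 CPM in wild type (3.14 ± 0.31, adjusted p = 5.01e-07). Bst2, which tethers virus particles, stood at 276, 379 and 246 CPM in Braf Smarcb1 KO CKI thyroid, against 34.9, 23.6 and 35.5 CPM in wild type (3.26 ± 0.40, adjusted p = 3.88e-06). Irf7, a transcription factor of the response, stood at 258, 415 and 152 CPM in Braf Smarcb1 KO CKI thyroid, against 43.1, 29.3 and 41.7 CPM in wild type (2.86 ± 0.37, adjusted p = 7.91e-06). Oas1a belongs to a family of near-identical genes that can share reads. Stat2 rose by a smaller fitted amount (1.25 ± 0.33, adjusted p = 0.00565). Rsad2, whose promoter also holds the core, stood at 33.9, 23.4 and 22.8 CPM in Braf Smarcb1 KO CKI thyroid, against 138, 94.9 and 114 CPM in wild type, lower in every library (-2.11 ± 0.37, adjusted p = 1.64e-04). Thus 12 of the 20 were higher and 1 lower (median 1.35), against 17.6% higher and 16.5% lower over all genes. Ifi44, Ddx58 and Cxcl10 were among the listed genes that overlapped. Without Braf Smarcb1 KO CKI 2 the counts were 11 higher and 2 lower.

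Interferon-stimulated genes were also higher than under vehicle and in Braf CKI. Relative to vehicle, 11 of the 20 were higher and none lower in the main fit, against 1.8% higher over all genes. Relative to Braf CKI, 16 were higher and none lower, against 7.87%. Ifit1 was 104.5, 58.2 and 104 CPM under vehicle (2.38 ± 0.44, adjusted p = 0.00419) and 18, 9.48 and 18.5 CPM in Braf CKI thyroid (4.92 ± 0.50, adjusted p = 1.33e-06). Rsad2, although below wild type, was above both (1.49 ± 0.36, adjusted p = 0.022 against vehicle and 1.86 ± 0.37, adjusted p = 0.00136 against Braf CKI), and the call against vehicle was lost without Braf Smarcb1 KO CKI 1 (1.29, adjusted p = 0.102) and without Braf Smarcb1 KO vehicle 2 (1.28, adjusted p = 0.0878). Of 7 leukocyte markers, 2 were lower than wild type and none higher (28.6% called, against 34.1% over all genes). Their sum was 111 to 184 CPM in Braf Smarcb1 KO CKI libraries, against 368 to 634 CPM in wild-type libraries. The leukocyte counts were 0 higher and 1 lower without Braf Smarcb1 KO CKI 1, 2 or 4 or wild type 3. When the mean level of these leukocyte markers was a covariate, 43 of the 245 genes named by rule lost their call against wild type, Dio2, Glis3, Cdkn1a, Cbx2, Cxcl1, H2-D1, Tap1 and Acta1 among them. Keratins then had 1 lower in place of 5, macrophage markers 1 in place of 6, class II genes 1 in place of 5 and skeletal muscle markers 0 in place of 4. Mitosis genes had 3 higher in place of 7, and fibroblast markers 5 higher in place of 1. Ifit1, Ifit3, Oas1a, Bst2, Irf7, Oasl2 and Usp18 passed the test with that covariate as well. The covariate itself differed by group, with a mean log2(CPM + 1) of 4.30 in Braf Smarcb1 KO CKI and 5.53 in wild type. Calls kept or lost with it therefore cannot separate leukocytes from group, and the part of leukocytes was not tested. The T cell list gave no call among 9 genes and the B cell list 1 lower among 6.

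Antigen presentation differed by class. Of 9 genes of class I, 2 were higher and none lower (22.2% called, against 34.1% over all genes): H2-D1 (1.57 ± 0.46, adjusted p = 0.0111) and the peptide transporter Tap1 (1.46 ± 0.47, adjusted p = 0.019), of which the call of H2-D1 was lost without wild type 1 (1.28, adjusted p = 0.0628) and that of Tap1 was lost without wild type 1 (1.20, adjusted p = 0.0897). B2m, the light chain, overlapped (0.05 ± 0.27, adjusted p = 0.899), and H2 genes are near-identical and can share reads. Of 7 genes of class II, 5 were lower and none higher (71.4% called). Cd74, the invariant chain, stood at 490.3, 482 and 375 CPM in Braf Smarcb1 KO CKI thyroid, against 1255, 1495 and 2786 CPM in wild type (-2.04 ± 0.46, adjusted p = 0.0017), and the other 4 calls depended on single libraries, with list counts of 0 higher and 1 lower without Braf Smarcb1 KO CKI 4 or wild type 3. Class II is known mainly from antigen-presenting cells, and 6 of 9 macrophage markers were lower, with a summed level of 204 to 375 CPM in Braf Smarcb1 KO CKI libraries, against 503 to 1454 CPM in wild-type libraries. Mrc1, the mannose receptor, stood at 6.89, 2.25 and 4.7 CPM in Braf Smarcb1 KO CKI thyroid, against 27, 39.7 and 81.5 CPM in wild type (-3.42 ± 0.85, adjusted p = 0.00383), and macrophage counts were 0 higher and 2 lower without Braf Smarcb1 KO CKI 2, 0 higher and 3 lower without Braf Smarcb1 KO CKI 4, and 0 higher and 1 lower without wild type 3. The part of macrophages in the class II result was not tested. Wild type 3 was highest of its group in both lists.

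Markers of parathyroid, C cells and endothelium had the lowest medians of all lists. All 4 parathyroid markers and 5 of 6 C cell markers were lower, with medians of -8.68 and -6.18. Over all genes, 16.5% were lower than wild type. Pth, or parathyroid hormone, stood at 53.3, 10.05 and 1.07 CPM in Braf Smarcb1 KO CKI thyroid, against 4814, 5427 and 1552 CPM in wild type (-7.52 ± 1.27, adjusted p = 1.34e-04), and the summed parathyroid markers at 2.77 to 91.3 CPM in Braf Smarcb1 KO CKI libraries, against 4214 to 14843 CPM in wild-type libraries. Gcm2, the factor that specifies the parathyroid, had 1 read in all Braf Smarcb1 KO CKI libraries, against 12.7, 14.5 and 2.94 CPM in wild type, a ratio of wild type to knockout of 1071 (95% counting interval 192 to 42345). Casr, the calcium-sensing receptor, had no read in replicates 2 and 4 (-8.93 ± 1.16, adjusted p = 8.41e-06). Calca, the gene of calcitonin, stood at 19.7, 123 and 7.66 CPM in Braf Smarcb1 KO CKI thyroid, against 7622, 11118 and 30270.1 CPM in wild type (-8.35 ± 1.5, adjusted p = 2.36e-04). Chga, a granin of endocrine vesicles, stood at 37.6, 8.93 and 1.71 CPM in Braf Smarcb1 KO CKI thyroid, against 4769, 9315 and 2622 CPM in wild type (-8.44 ± 1.17, adjusted p = 1.84e-05). Braf CKI thyroid was also low in these markers, with Pth at 65.9, 54.3 and 43.2 CPM and Calca at 18.4, 78.8 and 82.5 CPM.

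Of the 12 largest falls by the same rule of size, 3 are the parathyroid markers Gcm2, Casr and Chga. Among the others, Pnoc, the precursor of nociceptin, stood at 0.0581, 0.292 and 0 CPM in Braf Smarcb1 KO CKI thyroid, against 52.5, 58.9 and 159 CPM in wild type (-9.53 ± 1.42, adjusted p = 3.70e-05). Ddc, the aromatic amino acid decarboxylase of endocrine cells, stood at 0.0581, 0.239 and 0 CPM in Braf Smarcb1 KO CKI thyroid, against 32.7, 29.1 and 86.3 CPM in wild type (-8.89 ± 0.99, adjusted p = 1.69e-06). Rab3c, a GTPase of secretory vesicles, had 1 read on drug, a ratio of wild type to knockout of 819 (95% counting interval 147 to 32405), and Serpina3j also had 1 read, a ratio of 1815 (95% counting interval 325 to 71719). Ceacam19 stood at 0.0291, 0.0265 and 0.347 CPM in Braf Smarcb1 KO CKI thyroid, against 163, 203 and 110.3 CPM in wild type (-10.15 ± 1.86, adjusted p = 2.82e-04). Tubb1, a beta tubulin, and Lhfpl5 were lower at -8.80 and -8.73. Olfr1396 and Gkn3, with 3 and 2 reads on drug, had ratios of wild type to knockout of 399 (95% counting interval 136 to 1939.8) and 432 (95% counting interval 119 to 3571). Serpina3 and Olfr genes belong to large families that can share reads. The part of parathyroid and C cells in these falls was not tested.

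All 10 endothelial markers tested were lower (median -5.18), with a summed level of 86.3 to 99.8 CPM in Braf Smarcb1 KO CKI libraries, against 2149.7 to 3266 CPM in wild-type libraries. Kdr, the receptor of Vegfa, stood at 3.89, 4.96 and 8.43 CPM in Braf Smarcb1 KO CKI thyroid, against 189.7, 390.5 and 321 CPM in wild type (-5.70 ± 0.99, adjusted p = 1.62e-04). Emcn, or endomucin, stood at 8.28, 13.4 and 6.03 CPM in Braf Smarcb1 KO CKI thyroid, against 455, 312 and 581 CPM in wild type (-5.60 ± 0.98, adjusted p = 1.86e-04). Vwf, or von Willebrand factor, stood at 3.6, 2.28 and 3.04 CPM in Braf Smarcb1 KO CKI thyroid, against 132, 65.9 and 125 CPM in wild type (-5.17 ± 0.82, adjusted p = 6.60e-05). No endothelial marker overlapped between groups, against 52.7% of all genes tested without overlap, and none was at 0 on drug. Over all genes, 16.5% were lower than wild type. Of the 10 endothelial markers, 8 were lower than in Braf CKI, against 9.19% of all genes, and relative to vehicle none passed the test. The part of cell composition and of collection in the endothelial result was not tested. Of 10 angiogenic factors, 3 were called (30%, against 34.1% over all genes): Pgf, Angpt2 and Pdgfb were lower (-2.02 ± 0.37, adjusted p = 3.23e-04, -3.24 ± 0.86, adjusted p = 0.00579 and -2.71 ± 0.58, adjusted p = 0.00107), and Vegfa itself overlapped (-0.53 ± 0.46, adjusted p = 0.395). Pgf was above vehicle (2.03 ± 0.38, adjusted p = 0.00419).

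Contractile genes of smooth muscle and pericytes were lower in 4 of 8 and higher in none (50% called, against 34.1% over all genes). Their summed level was 96.3 to 264 CPM in Braf Smarcb1 KO CKI libraries, against 854 to 1498 CPM in wild-type libraries. Acta2 stood at 19.7, 28.9 and 12.4 CPM in Braf Smarcb1 KO CKI thyroid, against 566, 406 and 788 CPM in wild type (-4.85 ± 0.74, adjusted p = 4.47e-05). Myh11 stood at 4.5, 3.61 and 1.79 CPM in Braf Smarcb1 KO CKI thyroid, against 217, 224 and 243 CPM in wild type (-6.11 ± 1.37, adjusted p = 0.00164). Pericyte markers Rgs5, Pdgfrb and Cspg4 overlapped. Of 7 adipocyte markers, 3 were lower and 1 higher, with Lpl and Fabp4 lower (-4.14 ± 0.73, adjusted p = 1.93e-04 and -4.47 ± 0.97, adjusted p = 0.00124). Skeletal muscle markers were lower in 4 of 10 (40% called). Wild type 3 held the most, with Acta1 at 4.97, 6.87 and 4.72 CPM in Braf Smarcb1 KO CKI thyroid, against 5.69, 5.55 and 137 CPM in wild type. The call of Acta1 was lost without Braf Smarcb1 KO CKI 1, 2 or 4 or wild type 3 (-0.03 to -3.36, adjusted p = 0.0725 to 0.99). The counts were 0 higher and 1 lower without Braf Smarcb1 KO CKI 1, 0 higher and 2 lower without Braf Smarcb1 KO CKI 4, and 0 higher and 0 lower without wild type 3. Erythroid and neutrophil lists gave no call among 5 and 6 genes, and mast cell and cartilage lists each gave 1 higher and 1 lower, of 11 and 7 genes.

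Of 25 SWI/SNF subunits, 3 were higher and 5, Smarcb1 among them, lower. That share, 32%, was near the 34.1% over all genes. Smarcd3 stood at 9.47, 9.2 and 9.84 CPM in Braf Smarcb1 KO CKI thyroid, against 0.489, 0.221 and 0.096 CPM in wild type (5.13 ± 0.76, adjusted p = 3.46e-05). Bcl7c stood at 26.5, 31 and 30.4 CPM in Braf Smarcb1 KO CKI thyroid, against 2.76, 4.52 and 3.04 CPM in wild type (3.09 ± 0.45, adjusted p = 3.20e-05). Smarcc1, a scaffold subunit, stood at 60.9, 56.9 and 103 CPM in Braf Smarcb1 KO CKI thyroid, against 13.7, 21.3 and 14.4 CPM in wild type (2.16 ± 0.44, adjusted p = 7.26e-04). The other lower subunits were Brd9 (-1.32 ± 0.21, adjusted p = 8.12e-05), a subunit of the non-canonical form of the complex, Bcl7a (-1.10 ± 0.28, adjusted p = 0.00432), Dpf3 (-3.22 ± 0.93, adjusted p = 0.0102) and the neuronal subunit Actl6b (-4.50 ± 1.17, adjusted p = 0.00529). The ATPases Smarca4 and Smarca2 did not pass the test (0.52 and 0.15). In the comparison with Braf CKI, Smarcb1 was the only subunit called lower, and 1 was called higher, Smarcd3 (1.94 ± 0.64, adjusted p = 0.041), and the call of Smarcd3 was lost without Braf CKI 1, 4 or 5 or Braf Smarcb1 KO CKI 1, 2 or 4 (1.51 to 2.22, adjusted p = 0.063 to 0.163).

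Polycomb genes, which act against SWI/SNF at developmental genes, were higher in 8 of 16 and lower in none (50% called, against 34.1% over all genes). Bmi1, of repressive complex 1, stood at 31.8, 28.1 and 23.2 CPM in Braf Smarcb1 KO CKI thyroid, against 5.83, 6.03 and 6.18 CPM in wild type (2.20 ± 0.34, adjusted p = 4.88e-05). Ezh2, the methyltransferase of complex 2, stood at 13.4, 11.9 and 15.2 CPM in Braf Smarcb1 KO CKI thyroid, against 5.93, 5.37 and 5.73 CPM in wild type (1.25 ± 0.31, adjusted p = 0.00388), and its partner Suz12 did not pass the test (-0.42 ± 0.34, adjusted p = 0.368). Of the chromobox readers, Cbx7 stood at 39.2, 29.98 and 38.3 CPM in Braf Smarcb1 KO CKI thyroid, against 9.32, 14.1 and 9.92 CPM in wild type (1.69 ± 0.45, adjusted p = 0.00645), and Cbx8 and Cbx2 were higher (1.34 ± 0.34, adjusted p = 0.00402 and 1.99 ± 0.54, adjusted p = 0.00703). Cbx7 was above vehicle and Braf CKI (2.17 ± 0.46, adjusted p = 0.01 and 1.51 ± 0.45, adjusted p = 0.0239). The call against vehicle was lost without Braf Smarcb1 KO vehicle 1 (2.08, adjusted p = 0.0611), and that against Braf CKI was lost without Braf CKI 1, 4 or 5 or Braf Smarcb1 KO CKI 1 or 4 (1.37 to 1.61, adjusted p = 0.054 to 0.0944).

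The endoplasmic reticulum folds secreted proteins such as thyroglobulin. Of 16 genes of this folding machinery and its stress response, 9 were lower and 1 higher (median -1.20). The share called was 62.5%, against 34.1% over all genes. Hspa5, or BiP, stood at 1551, 2333 and 2056 CPM in Braf Smarcb1 KO CKI thyroid, against 6973, 9696 and 9614 CPM in wild type (-2.15 ± 0.36, adjusted p = 1.29e-04). Calr, or calreticulin, stood at 678, 654 and 981 CPM in Braf Smarcb1 KO CKI thyroid, against 4312, 4584 and 4278 CPM in wild type (-2.51 ± 0.31, adjusted p = 5.32e-06). Hsp90b1, or Grp94, stood at 570.3, 793 and 673 CPM in Braf Smarcb1 KO CKI thyroid, against 3339.6, 3457 and 3598 CPM in wild type (-2.35 ± 0.25, adjusted p = 1.19e-06). Pdia4 and Hyou1 were lower as well (-2.21 ± 0.27, adjusted p = 4.77e-06 and -2.13 ± 0.43, adjusted p = 7.48e-04). Pdia3 and the stress factors Xbp1 and Atf4 did not pass the test. None of the 16 passed the test against vehicle, where 3.85% of all genes did. The counts were 0 higher and 7 lower without Braf Smarcb1 KO CKI 1 or 2 or wild type 2, and 0 higher and 9 lower without wild type 1.

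Of 16 genes of glycolysis and hypoxia, which supply energy and respond to low oxygen, 6 were lower and 2 higher (50% called, against 34.1% over all genes). Slc2a1, the glucose transporter Glut1, stood at 65.3, 93.5 and 59.3 CPM in Braf Smarcb1 KO CKI thyroid, against 214, 214 and 222 CPM in wild type (-1.57 ± 0.35, adjusted p = 0.00167) and was below Braf CKI and vehicle as well (-2.23 ± 0.36, adjusted p = 2.29e-04 and -1.35 ± 0.35, adjusted p = 0.0319). The call against vehicle was lost without Braf Smarcb1 KO CKI 1 or 4 or Braf Smarcb1 KO vehicle 1 (-0.88 to -1.26, adjusted p = 0.117 to 0.24). Aldoa and Ndrg1 were lower (-1.33 ± 0.32, adjusted p = 0.00304 and -2.38 ± 0.48, adjusted p = 7.39e-04). Gapdh and Eno1 overlapped. Of 16 respiratory chain genes, 5 were lower and 2 higher (43.8% called), and of 15 of sterol and fatty acid synthesis, 4 were higher and 2 lower (40% called), shares near that of all genes. Scd1, a fatty acid desaturase, stood at 419, 209 and 984 CPM in Braf Smarcb1 KO CKI thyroid, against 80.3, 115 and 63.3 CPM in wild type (2.64 ± 0.63, adjusted p = 0.00271). The glycolysis counts were 1 higher and 4 lower without Braf Smarcb1 KO CKI 1, 1 higher and 6 lower without Braf Smarcb1 KO CKI 2 or 4, 1 higher and 5 lower without wild type 1, and 0 higher and 6 lower without wild type 2 or 3. Those of the respiratory chain were 1 higher and 2 lower without Braf Smarcb1 KO CKI 1, 1 higher and 6 lower without Braf Smarcb1 KO CKI 2, 0 higher and 5 lower without wild type 1, and 1 higher and 5 lower without wild type 3. Those of sterols and fatty acids were 2 higher and 0 lower without Braf Smarcb1 KO CKI 1 or 4, 1 higher and 2 lower without wild type 1, and 2 higher and 2 lower without wild type 3. Of 10 acute phase genes, 3 were higher, among them Lcn2, or lipocalin 2 (5.59 ± 1.02, adjusted p = 2.78e-04), and Hp, or haptoglobin (3.99 ± 0.73, adjusted p = 2.68e-04), and Lbp was lower (-3.64 ± 0.78, adjusted p = 0.00111).

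Immediate early genes, which dissociation of tissue can induce, were called in 6 of 13, with 4 higher and 2 lower (46.2% called, against 34.1% over all genes). Jun stood at 1825, 1975 and 1631 CPM in Braf Smarcb1 KO CKI thyroid, against 154, 244 and 205 CPM in wild type (3.17 ± 0.76, adjusted p = 0.00272), Fos overlapped (-0.35 ± 0.39, adjusted p = 0.52), and Egr1 did not pass the test (1.22 ± 0.63, adjusted p = 0.14). Their summed level was 15490.3 to 18905 CPM in Braf Smarcb1 KO CKI libraries, against 12305 to 15833 CPM in wild-type libraries, with list counts of 3 higher and 0 lower without Braf Smarcb1 KO CKI 1, 3 higher and 1 lower without Braf Smarcb1 KO CKI 2 or 4, and 2 higher and 1 lower without wild type 1. Whether handling had a part in the results was not tested. Of 16 chemokines, 4 were called (25%, against 34.1% over all genes). Ccl2 and Cxcl1 were higher (1.86 and 1.71). The call of Ccl2 was lost without Braf Smarcb1 KO CKI 1 or 2 or wild type 1 or 2 (1.5 to 1.98, adjusted p = 0.051 to 0.15), and that of Cxcl1 was lost without Braf Smarcb1 KO CKI 2 (1.45, adjusted p = 0.0534) and without wild type 2 (1.43, adjusted p = 0.0686). Cxcl12 and Cxcl13 were lower (-3.10 ± 0.68, adjusted p = 0.0014 and -6.10 ± 1.15, adjusted p = 3.82e-04).

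**Figure D5:**
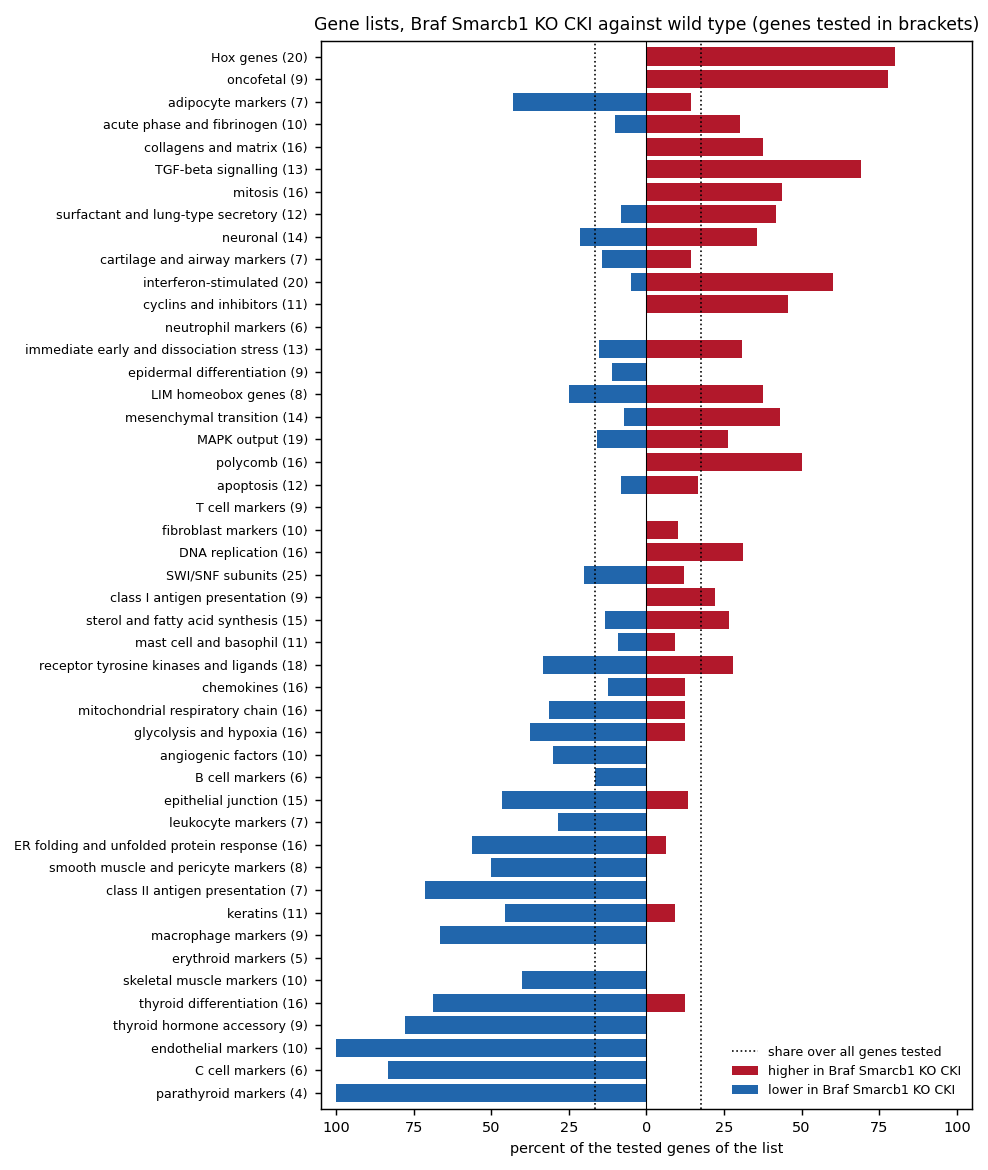
Percent of the tested genes of each list called higher (right) or lower (left) in Braf Smarcb1 KO CKI than in wild type, with lists ordered by their median log2 fold change and the number of genes tested in brackets. Dotted lines are the shares over all genes, 17.6% higher and 16.5% lower; Hox and oncofetal genes extend farthest to the right, and parathyroid and endothelial markers reach 100% on the left.

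The genes that most clearly set this distance apart from that of Braf alone on drug were chosen by the smallest p against Braf CKI among genes called against wild type. Since wild type cancels from that difference, it tests where the distance differs between the genotypes. Crabp1 was higher, at 1730.5, 1224 and 1772 CPM with Smarcb1 loss, against 0.195, 0.759 and 0.895 CPM in Braf CKI thyroid (11.32 ± 0.87, adjusted p = 9.27e-08). Gchfr, a regulator of tetrahydrobiopterin synthesis, stood at 291, 219 and 293 CPM with Smarcb1 loss, against 0.876, 1.64 and 1.48 CPM in Braf CKI and 4.08, 5.26 and 6.78 CPM in wild type (7.65 ± 0.64, adjusted p = 9.27e-08). Asb5, an ankyrin repeat protein, stood at 154, 204 and 123 CPM, against 1.01, 0.927 and 0.999 CPM in Braf CKI and 3.04, 3.01 and 2.62 CPM in wild type (7.35 ± 0.67, adjusted p = 3.29e-07). Galnt1, which starts O-glycosylation, stood at 299, 249 and 446 CPM, against 55.3, 47 and 36.2 CPM in Braf CKI and 21.6, 18.7 and 20.3 CPM in wild type (2.84 ± 0.26, adjusted p = 3.64e-07). The interferon-stimulated Oasl2 and Usp18 were the other genes of this direction (4.09 ± 0.35, adjusted p = 9.27e-08 and 4.65 ± 0.39, adjusted p = 9.27e-08).

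In the other direction, Cldn6, a claudin of embryonic epithelia, stood at 1.19, 2.6 and 2.32 CPM with Smarcb1 loss, against 38.1, 48 and 50.6 CPM in Braf CKI and 37.8, 28.8 and 30.3 CPM in wild type (-4.48 ± 0.38, adjusted p = 9.27e-08). Fbp2, a fructose bisphosphatase, stood at 0.639, 1.14 and 0.64 CPM, against 35.3, 29 and 28.7 CPM in Braf CKI and 17.9, 15.3 and 12.9 CPM in wild type (-5.26 ± 0.51, adjusted p = 9.03e-07). Mapk10, a JNK kinase, stood at 1.34, 2.15 and 1.36 CPM, against 35.9, 30.9 and 27.4 CPM in Braf CKI and 7.61, 8.45 and 12.4 CPM in wild type (-4.28 ± 0.45, adjusted p = 2.24e-06). P4ha2, a collagen prolyl hydroxylase, and Litaf were lower as well (-2.85 ± 0.29, adjusted p = 1.47e-06 and -2.33 ± 0.24, adjusted p = 1.47e-06), beside Tshr. In each of these 6 genes the Braf Smarcb1 KO CKI libraries lay below both other groups. The rule took only genes without overlap in both comparisons, so the lack of overlap follows from it.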

How the data were processed

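RNA was sequenced from mouse thyroids in 10 groups. The deposited table holds whole-number read counts per gene, made by the authors; the submitters' processing notes name STAR 2.4, HTSeq 0.6.1, DESeq2 and build mm9, with no role or order. Strand is not stated. Of 30 libraries in the labels, Braf Arid2 vehicle 1 and CKI 2 were not analysed here.

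From the counts, edgeR 4.0.16 (limma 3.58.1, R 4.3.3) fitted all 28 libraries together with 1 term per group, TMM scaling and filterByExpr. Quasi-likelihood tests gave p-values with Benjamini-Hochberg adjustment over 19016 genes, at a threshold of 0.05. The SE is the log2 fold change over the root of its F statistic. Replicate pairs of the groups tested had counts that differed by more than sampling, with chi-square over its degrees of freedom of 77.0 to 301. The procedure was also run on simulated counts, in which far fewer genes differed than here, and by smaller folds. That run cannot vouch for these calls. Alternatives were DESeq2 1.42.0, RLE size factors, no filter, only the 6 libraries compared, a leukocyte covariate, the replicate block and leaving out each library. Counting intervals and floors cover counting error only.

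Members and the 47 gene lists were chosen with earlier results of these data known. Genes named by rule were Smarcb1, the 12 largest rises and falls (called, at least 5 CPM in the higher group, no overlap, leaving out predicted genes, receptor segments and pseudogenes), the 6 smallest p in each direction against Braf CKI, the 16 thyroid genes, up to 6 called members of each list and defining markers. Other genes named were chosen after their values were seen. Some genes of the lists count in them and are not reported here by name. Promoter sequences are from RefSeq, build GRCm38.p6.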

Additional observations from a re-analysis of the deposited data

Results flagged for a closer look

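Every result listed here stood out because the test of the difference itself, edgeR's quasi-likelihood test of Braf Smarcb1 KO CKI minus Braf CKI in which wild type cancels, gave an adjusted p under 0.05. The distance from wild type on drug thus differed between the genotypes for each of these genes. Values are log2 differences, Braf Smarcb1 KO CKI minus Braf CKI, with 3 libraries in each group. Collection as the labels describe it cannot be told apart from genotype here.

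Higher with Smarcb1 loss were Crabp1 (11.32), Gchfr (7.65), Asb5 (7.35), Usp18 (4.65), Oasl2 (4.09) and Galnt1 (2.84). Crabp1, a retinoic acid carrier, had the largest difference of these. Usp18 and Oasl2 are interferon-stimulated genes.

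Lower with Smarcb1 loss were Fbp2 (-5.26), Tshr (-4.97), Cldn6 (-4.48), Mapk10 (-4.28), P4ha2 (-2.85) and Litaf (-2.33). Others lower, among the thyroid differentiation genes, included Duox1 (-3.57), Slc5a5 (-3.48), Dio1 (-3.17), Duox2 (-3.15) and Tg (-2.94), and of their transcription factors Glis3 (-2.56), Foxe1 (-2.25) and Pax8 (-1.74). The call of Slc5a5 was lost without Braf CKI 1 or Braf Smarcb1 KO CKI 1, 2 or 4 (-2.63 to -4.03, adjusted p = 0.0566 to 0.127). The call of Duox1 was lost without Braf Smarcb1 KO CKI 4 (-3.30, adjusted p = 0.053), that of Dio1 was lost without Braf CKI 1 or Braf Smarcb1 KO CKI 1 or 4 (-2.64 to -3.02, adjusted p = 0.071 to 0.0877) and that of Duox2 was lost without Braf CKI 1 or 5 or Braf Smarcb1 KO CKI 1 or 4 (-2.57 to -3.53, adjusted p = 0.0615 to 0.0982).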

How the results depend on the processing

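Counts of genes differing from wild type were 7221 with DESeq2, 6508 with RLE size factors, 5900 without a filter, 6932 with only the 6 libraries and 4985 with the leukocyte covariate, against 6487, and 5081 to 5749 without 1 library. Against Braf CKI, where 3243 differed, the count was 1996 to 2959 without 1 library, lowest without Braf Smarcb1 KO CKI 4, 2036 without Braf Smarcb1 KO CKI 1 and 2154 without Braf CKI 5. Against vehicle, where 732 differed, DESeq2 gave 1608, the 6 libraries alone 2, and leaving out 1 library 233 to 923, lowest without Braf Smarcb1 KO vehicle 1. Without Braf Smarcb1 KO CKI 1, 2 or 4 that count was 292, 365 or 484, and without vehicle 2 it was 437. The 6-library fits and those without 1 library use fewer libraries, and beyond that the cause was not tested.

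The thyroid score of Braf Smarcb1 KO CKI, 3.31 at a pseudocount of 1, was 3.06 at 0.5 and 4.22 at 5, and that of wild type, 5.91, was 6.39 at 5. The distance to wild type, 1.34, was 1.49 at a pseudocount of 0.5 and 0.983 at 5. These moves follow from the pseudocount, and the score stayed lower in Braf Smarcb1 KO CKI at each.

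Of 245 genes named by rule, no direction against wild type was reversed by an alternative that was run. Calls were lost for 5 genes with DESeq2, 1 with RLE size factors, 2 without a filter, 5 with only the 6 libraries, 43 with the leukocyte covariate and 18 to 42 without 1 library. With wild type, numbers 1 and 2 are shared, and same-numbered libraries did not deviate together (r = -0.03 and -0.087 across genes). These 2 pairs cannot settle whether libraries of the same number share more than the number. The replicate block gave 5578 genes against wild type, 2514 against Braf CKI and 339 against vehicle, and 28 named genes lost their call under it. At these depths, genes with 3 counts or fewer in a group give bounds and not fold changes.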
